A study of Mus musculus with 4 samples.

Results

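Glucocorticoid and FoxO atrophy response genes were examined in whole normal skeletal muscle of mice. The set held 10 genes, Fbxo32, Foxo1, Foxo3, Klf15, Fkbp5, Zbtb16, Tsc22d3, Mt1, Mt2 and Txnip, of 12393 genes measured. It was chosen by name, with earlier results of these data known. All 10 had at least 1 probe set (a group of short array probes read as 1 value) that the platform annotation assigns to exactly 1 gene, 22 probe sets in all. The probe set with the highest mean stood for the gene, and the remaining 12 served as a check. The data were 4 bulk muscle samples of wild type mice on a mixed 129S4/SvJae and C57BL/6 background, each on its own Affymetrix array, titled skm4, skm5, nm7 and nm8. In the series this muscle stands beside sarcomas, which were not analysed here. The labels give no treatment, age, sex, muscle, feeding state or time of collection, and leave unsaid whether each sample is another animal. The title prefix is the only label that differs between samples and its meaning is not given, so the skm minus nm difference describes 2 samples against 2 and names no condition.

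Glucocorticoids released by the adrenal gland act in muscle through the glucocorticoid receptor, which enters the nucleus on binding the hormone and switches on genes such as Fkbp5, Tsc22d3, Klf15 and Zbtb16. In fasting, stress and disuse, the receptor and the FoxO transcription factors together raise genes that break muscle protein down, among them the ubiquitin ligase gene Fbxo32 (atrogin-1). Insulin and insulin-like growth factor oppose this by way of AKT, which keeps FoxO proteins out of the nucleus. Metallothioneins, small proteins that bind zinc and copper, and Txnip, which binds thioredoxin and restrains glucose uptake, answer to glucocorticoids as well as to metals and glucose.

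The promoters of 4 genes are shown because Mt1 and Mt2 are neighbours that both read higher in skm, and because Txnip and Klf15 carry a motif that few promoters hold. Each line gives the 250 bases before the transcription start in RefSeq, build GRCm38.p6, 5′ to 3′ on the gene's strand. Capitals mark the core of the metal response element (TGCNCNC) in Mt1 and Mt2, the FoxO motif TGTTTAC and the carbohydrate response pair (2 copies of CACGNG with 5 bases between them) in Txnip, and the E-box CACGTG, the site of clock activators, in Klf15. The windows are chr8:94178839-94179088 for Mt1, chr8:94172368-94172617 for Mt2, chr3:96557707-96557956 for Txnip and chr6:90462326-90462575 for Klf15, all on the plus strand.
Mt1: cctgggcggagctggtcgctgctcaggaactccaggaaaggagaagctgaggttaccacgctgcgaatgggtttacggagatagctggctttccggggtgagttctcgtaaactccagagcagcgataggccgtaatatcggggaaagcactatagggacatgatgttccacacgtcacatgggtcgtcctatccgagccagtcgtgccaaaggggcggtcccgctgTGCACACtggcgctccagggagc
Mt2: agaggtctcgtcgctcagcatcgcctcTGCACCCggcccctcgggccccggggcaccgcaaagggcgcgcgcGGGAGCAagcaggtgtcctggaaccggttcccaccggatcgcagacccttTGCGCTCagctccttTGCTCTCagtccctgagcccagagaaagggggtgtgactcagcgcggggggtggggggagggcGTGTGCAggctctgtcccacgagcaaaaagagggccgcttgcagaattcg
Txnip: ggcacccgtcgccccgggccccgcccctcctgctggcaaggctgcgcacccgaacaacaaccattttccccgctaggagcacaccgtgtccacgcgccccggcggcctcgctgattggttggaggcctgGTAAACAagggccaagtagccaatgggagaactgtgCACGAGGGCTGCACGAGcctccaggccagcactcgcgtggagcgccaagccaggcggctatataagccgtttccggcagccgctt
Klf15: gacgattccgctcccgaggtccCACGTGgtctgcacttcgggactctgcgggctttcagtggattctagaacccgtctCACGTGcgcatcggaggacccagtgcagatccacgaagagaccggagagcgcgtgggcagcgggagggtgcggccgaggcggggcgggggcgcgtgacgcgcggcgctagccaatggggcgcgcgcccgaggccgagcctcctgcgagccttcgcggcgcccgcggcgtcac

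Motifs were searched on both strands. The Mt2 window held 5 metal response cores and the Mt1 window held 1. Both counts depend on the start given in RefSeq, and bases after it were not searched. They therefore do not rank the 2 promoters by their metal response elements. Cores were not limited to the metallothioneins, since Klf15 held 2 and Txnip, Foxo3, Fkbp5 and 1 window of Tsc22d3 held 1 each, and the cores of Txnip and Klf15 are not marked by the capitals above. Fkbp5 also held 1 E-box. Of 32851 windows of the same length, 44.4% held at least 1 such core and 0.344% held 5 or more. In Txnip the FoxO motif, read on the minus strand, began at position -121, counted from the start, and the carbohydrate response pair at -85. The FoxO motif was in 3.17% of windows and the pair in 0.0457%. Klf15 held 2 E-boxes, at -228 and -172, against 0.429% of windows with 2 or more. Of the 8 genes with a promoter entry, which leaves out Fbxo32 and Zbtb16, 0 held the full glucocorticoid response element (AGAACA, 3 bases of any kind, TGTTCT) in this window, and 3 of all 32851 windows did. These matches are descriptions of the letters, and they do not show binding.

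The label of the tissue was borne out by its markers, since all 7 skeletal muscle markers, such as Ckm and Acta1, read between 14.47 and 14.75 in every sample. Markers of some other cells moved with the prefix or with single samples. Most macrophage (6 of 9), neutrophil (4 of 7) and tendon (4 of 6) markers overlapped between the prefixes. The log2 of the summed level of 8 measured lymphocyte markers was 9.40 in skm4 and 10.53 in skm5, against 11.63 in nm7 and 11.83 in nm8, and all 8 were lower in skm without overlap. The same sum for 8 adipocyte markers was 15.10 and 15.37 in skm, against 15.58 and 15.64 in nm, with 5 lower and 3 overlapping. Sample skm5 stood apart in the sum for 9 keratinocyte markers, at 11.31, against 9.70 in skm4, 9.64 in nm7 and 9.92 in nm8. Not every marker followed, since Sfn read 6.17 in skm4 and 6.12 in skm5, and Trp63 was highest in nm7, at 6.21. Between the prefixes, 1 was higher in skm without overlap and 8 overlapped. None of these markers was at 0, and the dimmest keratinocyte marker, Dsp, read as low as 4.12, near the bacterial control probe sets at 3.40 to 4.05. The sum for 8 endothelial markers was 12.44 and 12.52 in skm, against 12.15 and 12.12 in nm, with 4 higher, 2 lower and 2 overlapping. All 3 measured of 5 erythroid markers were higher in skm without overlap. Their sums were 9.02 and 9.92 in skm, against 8.55 and 8.42 in nm. The brightest, Alas2, read 8.77 and 9.79 in skm, against 8.28 and 8.10 in nm. The other markers were dim, with Hba-a1 at 4.24 to 4.81, near the bacterial controls, and Slc4a1 at 5.40 to 5.90. Clock genes, a list that includes Dbp and Tef, had no overlap between the prefixes in 12 of 12 cases, 8 higher and 4 lower in skm. For Nr1d1 the separation was minimal, since skm5 and nm8 both read 8.31. Beside all these marker counts, 54.4% of all genes had no overlap, 25.8% higher and 28.6% lower in skm. In bulk samples, fewer cells of a type and less RNA per cell cannot be told apart, and the part of these markers in the results was not tested.

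Across all genes, 4 (0.0323%) passed limma's test at an adjusted p of 0.05, 3 higher and 1 lower in skm. None of the 10 genes was among them. Just above the threshold, at a limma adjusted p up to 0.051, lay 133 genes, Mt2 among them. The total of 4 was 0 without nm7, without nm8 or without skm4, and 15 without skm5. At an adjusted p of 0.10, a threshold added after seeing the data, 2 of the 10 (Mt2 and Tsc22d3, both higher) and 8.03% of all genes passed. At an unadjusted p under 0.05, 5 of the 10 genes differed, 4 higher and 1 lower, where 23.5% of all genes did (10.6% higher and 13.0% lower). The skm and nm samples did not overlap in 8 of the 10, with Klf15, Fkbp5, Tsc22d3, Mt1, Mt2 and Txnip higher in skm and Foxo1 and Foxo3 lower, against 54.4% of all genes. Higher without overlap were 6 of 10, against 25.8% of all genes, and lower were 2 of 10, against 28.6%. Because the 10 genes were chosen with earlier results of these data known, these counts are descriptions and not independent support. The median difference was 0.38 over the 10 genes and -0.0034 over all genes, on the log2 scale on which every value and difference here is given. The median SD over the 4 samples was 0.35 for the 10 genes and 0.19 for all genes.

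**Figure D1:**
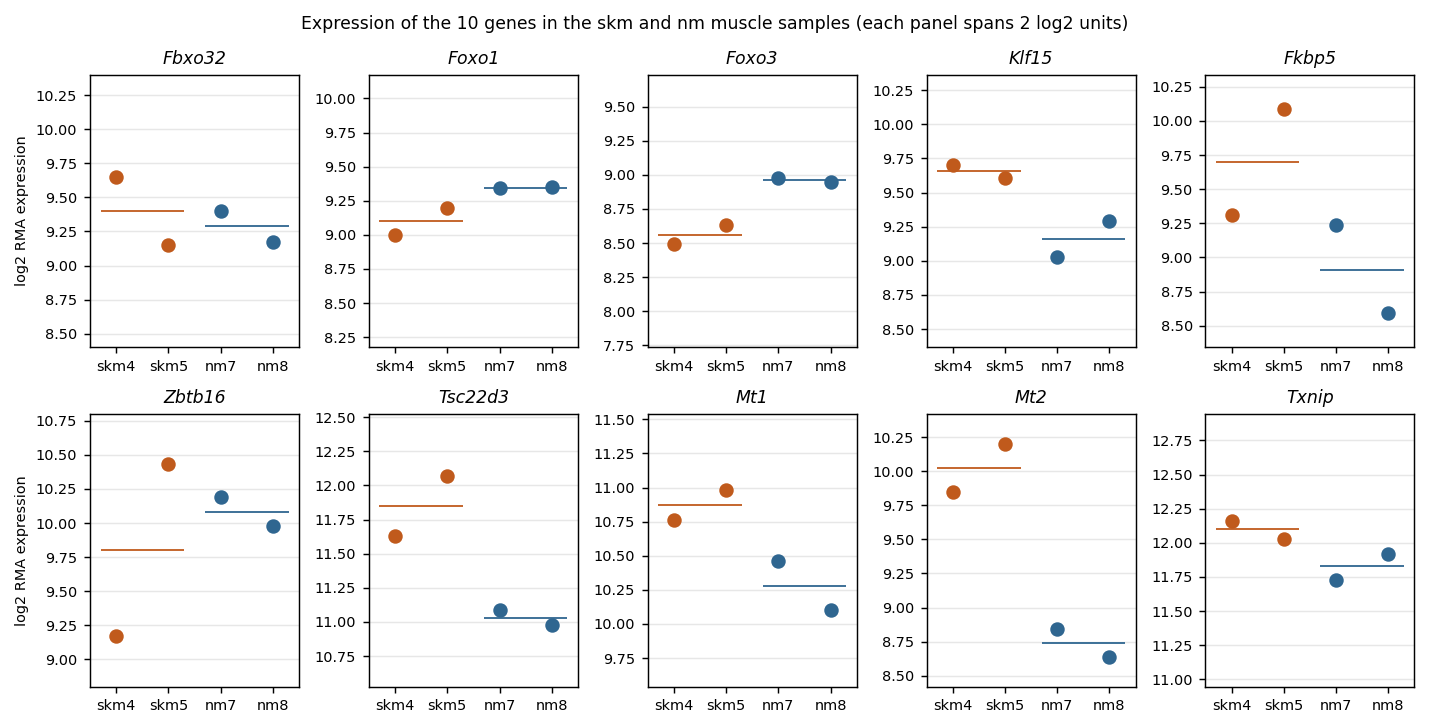
Log2 expression (RMA values, y axis) of the 10 genes in skm4, skm5, nm7 and nm8 (x axis), with a panel per gene that spans 2 log2 units; points are samples and lines are prefix means. The skm points of Mt2 lie at 9.85 and 10.20, above the nm points at 8.84 and 8.64, while those of Fbxo32 and Zbtb16 overlap the nm points.

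The FoxO factors read slightly lower in skm by their brightest probe sets, and the other probe sets did not follow. Foxo3, a factor that drives proteolysis and autophagy in muscle, read 8.49 in skm4 and 8.63 in skm5, against 8.98 in nm7 and 8.95 in nm8. Both skm samples lay below both nm samples, with a difference of -0.41 ± 0.12 (standard error of the fit, n = 2 per prefix; limma adjusted p = 0.136). The second Foxo3 probe set differed by -0.04 ± 0.13 and the faintest by 0.39 ± 0.26, where skm4 alone was high at 5.67 and the other samples read 4.87 to 4.90. For Foxo1, the relative of Foxo3 that also controls fuel use, the values were 9.0 and 9.20 in skm, against 9.34 and 9.35 in nm (-0.24 ± 0.13, limma adjusted p = 0.322). Its other 3 probe sets differed by -0.14 ± 0.20, 0.15 ± 0.15 and 0.32 ± 0.16. No direction held over all probe sets of either gene, so neither can be called lower in skm from these arrays.

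Fbxo32, the atrophy ligase that FoxO factors induce, did not separate the prefixes. It read 9.65 in skm4 and 9.15 in skm5, against 9.40 in nm7 and 9.17 in nm8. Sample skm4 was the highest and skm5 the lowest, so the gap of 0.50 within skm was wider than the difference of 0.11 ± 0.20 (limma adjusted p = 0.784). The second probe set had the same order of samples, at 8.72 and 8.15 in skm, against 8.35 and 8.17 in nm. Without skm4 the difference was -0.14.

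Tsc22d3, a target of the receptor, was higher in both skm samples. It encodes GILZ, a leucine zipper protein that carries part of the anti-inflammatory action of glucocorticoids. The gene read 11.63 in skm4 and 12.07 in skm5, against 11.09 in nm7 and 10.98 in nm8. The difference was 0.81 ± 0.18 or 1.76-fold (limma adjusted p = 0.0819). A second probe set gave 0.91 ± 0.18 with values of 10.69 and 11.11 in skm, against 10.02 and 9.96 in nm. The third, of the class marked for cross-hybridization, overlapped, at 0.20 ± 0.18. Without skm5 the difference of the brightest probe set was 0.59.

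Fkbp5, a co-chaperone that damps the glucocorticoid receptor in a feedback loop, was also higher in skm, with wide spread inside each prefix. Its brighter probe set read 9.31 in skm4 and 10.09 in skm5, against 9.24 in nm7 and 8.59 in nm8. The prefixes did not overlap, but skm4 and nm7 lay 0.07 apart, and the difference of 0.79 ± 0.33 missed the threshold (limma adjusted p = 0.227). It was 0.39 without skm5, 0.46 without nm8, 1.11 without nm7 and 1.18 without skm4. The fainter probe set was tighter, at 7.36 and 7.46 in skm, against 6.17 and 6.70 in nm, a difference of 0.98 ± 0.20 (adjusted p = 0.0755 in the limma fit over probe sets).

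Klf15, a zinc finger factor that glucocorticoids induce and that promotes amino acid breakdown in muscle, has 1 probe set. It read 9.70 and 9.61 in the skm samples, against 9.03 and 9.29 in the nm samples. Both skm samples were higher, by 0.50 ± 0.14 or 1.41-fold (limma adjusted p = 0.122), and the difference stayed between 0.37 and 0.63 whichever sample was left out.

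Zbtb16, which encodes the transcriptional repressor PLZF and rises with glucocorticoids in many cell types, did not follow Tsc22d3 and Fkbp5. Its brighter probe set, of the class marked for cross-hybridization, read 9.17 in skm4 and 10.43 in skm5, against 10.19 in nm7 and 9.98 in nm8. Here skm4 was the lowest and skm5 the highest, and the difference of -0.28 ± 0.40 (limma adjusted p = 0.723) was -0.92 without skm5 and 0.35 without skm4. The other probe set read 6.76 and 6.31 in skm, against 7.31 and 7.38 in nm. By that probe set both skm samples were lower, by 0.81 on the log2 scale (-0.81 ± 0.18, adjusted p = 0.0848 in the limma fit over probe sets). The order of skm4 and skm5 was opposite in the 2 probe sets. Summed Schwann cell markers (4 measured of 7) were 12.25 in skm4 and 13.21 in skm5, against 12.80 in nm7 and 12.70 in nm8. Of these, 1 was higher in skm without overlap and 3 overlapped, where 54.4% of all genes had no overlap. Sox10 did not follow the sum, at 7.79 and 7.84 in skm, against 7.54 and 7.56 in nm. The keratinocyte and erythroid sums were also highest in skm5, and the part of these markers was not tested.

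Mt2 had the largest difference of the 10 genes. It read 9.85 in skm4 and 10.20 in skm5, against 8.84 in nm7 and 8.64 in nm8. The lowest skm sample lay 1.01 above the highest nm sample, and the difference was 1.29 ± 0.17, or 2.44-fold. In the fit over genes the adjusted p was 0.0506 (limma), which missed the threshold of 0.05. Mt2 shared this place with many genes, since 133 had an adjusted p above 0.05 and up to 0.051. A larger absolute difference was seen in 89 of 12393 genes. In the limma fit over 22626 probe sets the adjusted p of Mt2 was 0.0474, where 308 probe sets (1.36%) passed. Leaving out 1 sample gave differences of 1.11 to 1.46, the lowest without skm5, where Mt2 itself read highest. Sample skm5 also had the highest sum of keratinocyte markers, and their part was not tested.

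Mt1, the neighbour of Mt2, had the same direction and a smaller difference. Its brighter probe set read 10.76 in skm4 and 10.98 in skm5, against 10.46 in nm7 and 10.10 in nm8, a difference of 0.59 ± 0.17 or 1.51-fold (limma adjusted p = 0.127). The other read 6.83 and 6.39 in skm, against 6.18 and 6.11 in nm, with a difference of 0.46 ± 0.18. Neither probe set overlapped between the prefixes. The order of all 4 samples, with skm5 highest and nm8 lowest, was the same in Mt2 and in the brighter probe set of Mt1, and in the fainter one skm4 was the highest. That brighter probe set belongs to a class that can detect several related transcripts. Whether the differences of Mt1 and Mt2 differ from each other was not tested.

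Txnip gave a small or a large difference depending on the probe set. The brighter one, which stood for the gene, read 12.16 in skm4 and 12.03 in skm5, against 11.73 in nm7 and 11.92 in nm8 (0.27 ± 0.13, limma adjusted p = 0.295). The other read 9.89 and 10.02 in skm, against 8.43 and 8.82 in nm, a difference of 1.33 ± 0.17 or 2.52-fold. That probe set passed the limma fit over probe sets (adjusted p = 0.0464), and both probe sets had every skm sample above every nm sample. The cause of the unequal sizes was not tested.

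**Figure D2:**
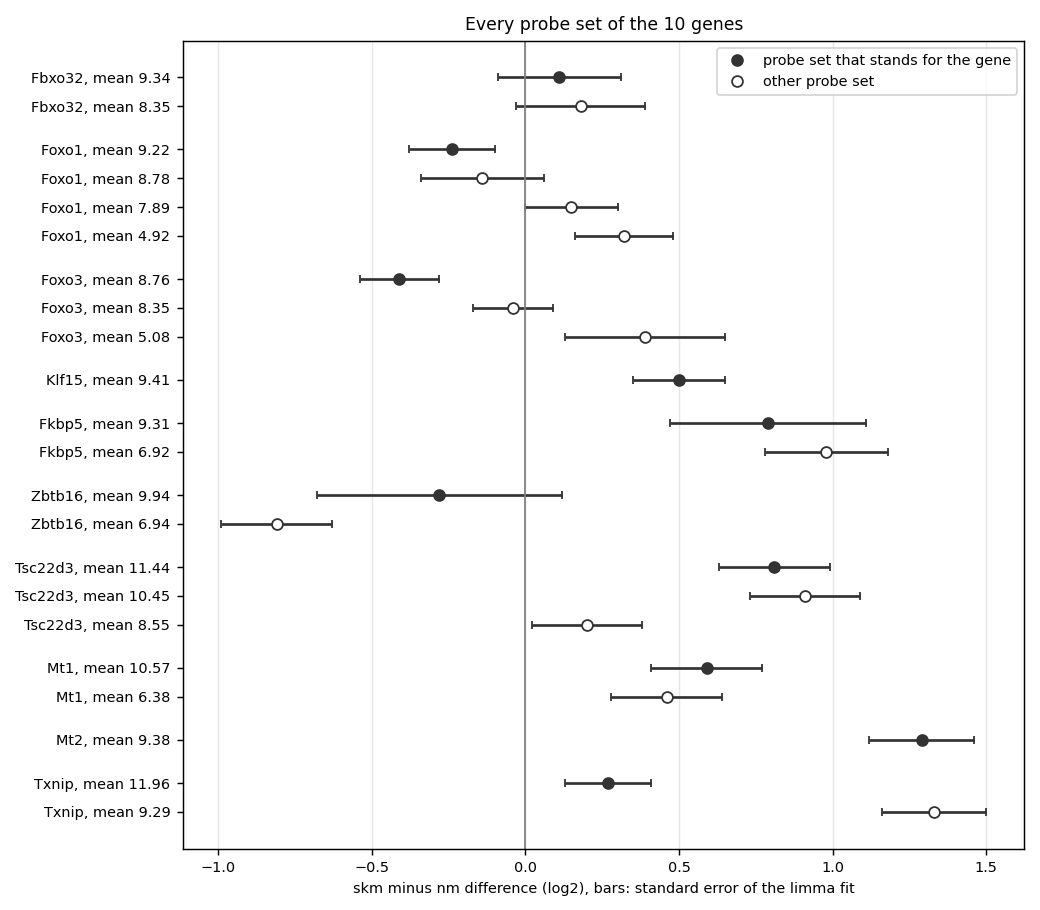
Difference between skm and nm samples (log2, x axis; bars are standard errors of the limma fit over probe sets, n = 2 per prefix) for each of the 22 probe sets, listed by gene with the mean log2 level of the probe set. Filled points stand for the gene; Txnip differs by 0.27 and 1.33 and Foxo1 by -0.24 to 0.32 depending on the probe set.

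Of all 22 probe sets, 11 were higher in skm without overlap, 3 were lower and 8 overlapped, which is 14 of 22 without overlap, against 52.9% of all probe sets. Only the probe set of Mt2 and the fainter one of Txnip passed the fit over probe sets. Gene by gene, every probe set of Klf15, Fkbp5, Mt1, Mt2 and Txnip was higher in skm without overlap, and 2 of the 3 of Tsc22d3 were.

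Other glucocorticoid target genes, a list of 20 of which 17 were measured, leaned the same way. None passed the limma test over all genes and 10 of 17 had an unadjusted p under 0.05, against 23.5% of all genes. Without overlap, 12 were higher in skm, 1 (Angptl4) was lower and 4 overlapped, which is 76.5%, against 54.4% of all genes. The list's median difference was 0.57. Like the 10 genes, this list was chosen with earlier results of these data known, so its lean is a description. Ddit4, an inhibitor of mTORC1 that glucocorticoids and stress induce, read 11.13 and 11.49 in skm, against 8.15 and 9.41 in nm (2.52 ± 0.41, limma adjusted p = 0.0608). Per1, a clock repressor that is also a direct receptor target, read 9.92 and 9.95 in skm, against 7.59 and 8.53 in nm (1.88 ± 0.31, limma adjusted p = 0.0608). Cebpd, a transcription factor of the acute phase, differed by 1.03 ± 0.29, and Sgk1, a kinase related to AKT, by 0.76 ± 0.24. Pdk4, which restrains glucose oxidation and answers to both the receptor and FoxO, overlapped, at 12.04 and 11.75 in skm, against 12.60 and 11.54 in nm (-0.17 ± 0.35). Per1 is also among the 12 clock genes without overlap, of which 2 passed the test over all genes. Time of day is not given in the labels and cannot be told apart from the prefix.

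Other FoxO target and atrophy genes showed no common direction. Of 25 listed, 22 were measured, none passed the limma test over all genes, and 3 of 22 had an unadjusted p under 0.05, against 23.5% of all genes. Without overlap, 8 were higher and 5 lower, while 9 overlapped, which leaves 59.1% without overlap, against 54.4% of all genes, and the list's median difference was 0.09. Sqstm1, the autophagy adaptor p62, read 11.90 and 11.76 in skm, against 11.18 and 11.17 in nm (0.66 ± 0.12, limma adjusted p = 0.0685). Map1lc3b, an autophagosome protein, stood at 0.33 ± 0.13. On the low side were Sesn3, a FoxO-induced stress protein, at -0.45 ± 0.12, and Foxo4, another FoxO factor of muscle, at -0.42 ± 0.12. Trim63, the ligase MuRF1 usually read beside Fbxo32, was not analysed here.

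The receptor itself overlapped between the prefixes by its brightest probe set, and its partners went both ways. Nr3c1, the glucocorticoid receptor, read 10.32 and 10.73 in skm, against 10.77 and 10.45 in nm (-0.08 ± 0.19, limma adjusted p = 0.837). With its probe sets averaged, Nr3c1 differed by -0.20, without overlap. Hsp90aa1, an inducible form of the chaperone that holds the receptor ready to bind hormone, had the largest difference of this list. It read 9.66 and 10.25 in skm, against 11.15 and 10.81 in nm (-1.02 ± 0.24, limma adjusted p = 0.0905). Ncoa1, a coactivator of the receptor, differed by -0.63 ± 0.13, Fkbp4, a co-chaperone that favours receptor transport, by 0.22 ± 0.12, and Hspa8, a constitutive chaperone, by -0.22 ± 0.14. With its probe sets averaged, Hspa8 overlapped between the prefixes, at -0.10. None of the 8 measured genes passed, and 2 of 8 had an unadjusted p under 0.05, against 23.5% of all genes. No overlap was seen in 5 (62.5%, against 54.4% of all genes), 2 higher and 3 lower.

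Metal and oxidant response genes did not share the direction of Mt1 and Mt2. Of 12 measured, 4 were higher without overlap (25.8% of all genes), 4 lower (28.6% of all genes) and 4 overlapped. None passed the limma test, and 2 of 12 had an unadjusted p under 0.05, against 23.5% of all genes, with a list median of -0.04. Gclm, the regulatory subunit of the enzyme that limits glutathione synthesis, read 9.82 and 9.98 in skm, against 9.44 and 9.24 in nm (0.56 ± 0.14), and Gclc, the catalytic subunit, differed by -0.31 ± 0.11. Slc30a1, a zinc exporter induced by the same metal-sensing factor as the metallothioneins, stood at 0.28 ± 0.12. Hmox1, which degrades haem, read 7.74 and 7.73 in skm, against 7.70 and 7.01 in nm (0.38 ± 0.24), so nm8 alone was low. Mt3, a metallothionein known mainly from brain, read 7.41 and 7.50 in skm, against 7.50 and 7.94 in nm.

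Upstream of FoxO, genes of the IGF and AKT pathway separated the prefixes about as often as all genes did. Of 11 measured, 5 were lower in skm without overlap and 1 higher, which is 54.5%, against 54.4% of all genes (28.6% lower and 25.8% higher). None passed the limma test over all genes and 4 of 11 had an unadjusted p under 0.05, against 23.5% of all genes. Irs1, an adaptor of the insulin and IGF receptors, read 12.13 and 12.07 in skm, against 12.62 and 12.54 in nm (-0.48 ± 0.12, limma adjusted p = 0.0969). Pdpk1, the kinase that activates AKT, differed by -0.45 ± 0.12, Akt2, the AKT of insulin signalling, by -0.37 ± 0.12, and Pik3ca, a catalytic subunit of PI3-kinase, by -0.33 ± 0.12. Without probe sets that may cross-hybridize or detect several related transcripts, the Akt2 difference was -0.08, with overlap. With its probe sets averaged, Akt2 differed by -0.22. The list's median difference was -0.02. Among Txnip partners and related arrestins, 0 of 6 passed, 1 had an unadjusted p under 0.05 (23.5% of all genes), and 2 were higher and 2 lower without overlap (54.4% of all genes in either direction). Mlxip, the glucose-sensing factor MondoA that drives Txnip in muscle, read 10.20 and 10.29 in skm, against 9.84 and 9.71 in nm (0.47 ± 0.12). Its partner Mlx stood at -0.19 ± 0.12, and the Txnip relatives Arrdc1 and Arrdc4 at 0.24 ± 0.13 and -0.31 ± 0.20.

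**Figure D3:**
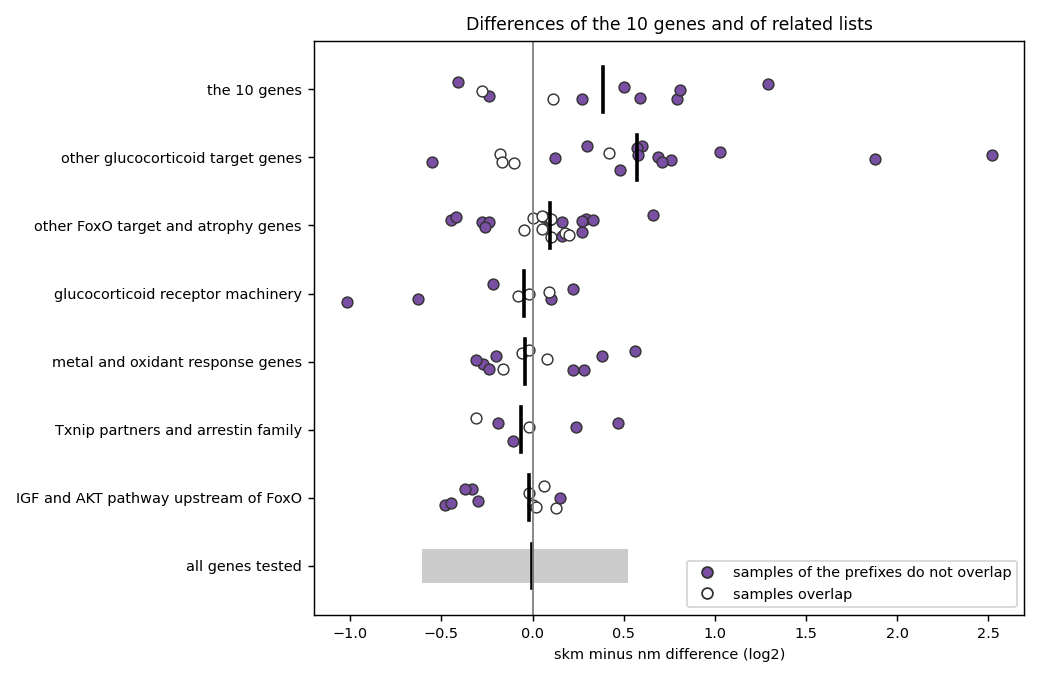
Difference between skm and nm samples (log2, x axis) for the 10 genes and 6 related lists; each point is a gene, filled where the prefixes do not overlap, and black bars are list medians. The grey bar runs from percentile 5 to percentile 95 of all 12393 genes, -0.61 to 0.52. List medians are 0.38 for the 10 genes and 0.57 for other glucocorticoid targets, and the others lie between -0.07 and 0.09.

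Genes with the most similar pattern were sought for the 4 of the 10 genes whose SD was at least 0.5, by the Euclidean distance between centred values over the 4 samples, among 552 other genes of that spread. Nearest to Mt2 were Noct (distance 0.12), a gene with a daily rhythm, Pecam1 (0.18), an endothelial adhesion molecule, and Sema3a (0.18), an axon guidance factor. Noct read 10.51 and 10.85 in skm, against 9.55 and 9.43 in nm. Nearest to Tsc22d3 were Myl9 (0.09), a smooth muscle myosin light chain, Otub1 (0.12), a deubiquitinase, and Spsb1 (0.13). Nearest to Fkbp5 were Adamtsl4 (0.17), Kifc2 (0.24) and Ifi204 (0.29), and nearest to Zbtb16 were Anxa1 (0.23), a protein of glucocorticoid anti-inflammatory action, Fgfbp1 (0.24) and the Schwann cell marker S100b (0.31). With 4 samples, many genes share a pattern, and likeness is given as a description.

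**Figure D4:**
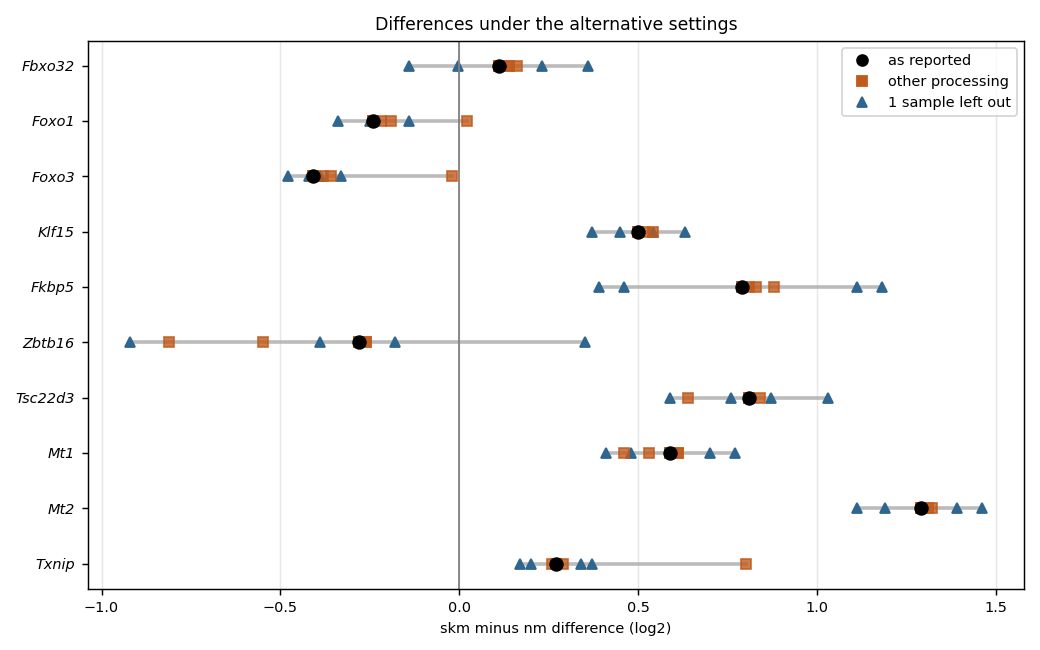
Difference between skm and nm samples (log2, x axis) of each gene as reported (circles), under other processing (squares) and with 1 sample left out (triangles); grey lines join the extremes. Mt2 stays between 1.11 and 1.46, while Fbxo32, Foxo1 and Zbtb16 cross 0.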

How the data were processed

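The authors deposited 1 log2 value per probe set and array. The submitters' processing notes name RMA and Affymetrix Expression Console 1.1, and the range of the values shows the log2 scale. RMA corrects background, brings arrays to a common distribution and compresses differences near both ends of the range. The sources used here do not give which arrays were normalized together. Of 22690 probe sets, 64 were controls, and 20380 of the rest had 1 gene in the platform annotation, 691 several and 1555 none. Entrez identifiers were matched to the GRCm38.p6 gene table to bring symbols up to date. The highest-mean probe set stood for each of 12393 genes, with no filter on dim genes. The number of arrays limits the precision, and array medians were 7.26 to 7.30.

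For skm minus nm, limma 3.58.1 (R 4.3.3) gave moderated tests (eBayes, 2-sided, Benjamini-Hochberg over all genes, threshold 0.05), with 2 residual and 3.51 prior degrees of freedom. The same fit was run on 22626 probe sets, and the code was tested on simulated data. P-values rest on sample-to-sample spread that could be technical alone. The 10 genes and the lists were chosen with earlier results of these data known. Besides the 10 genes, the text names up to 4 genes per list by absolute difference, always Nr3c1, Ddit4, Per1 and Pdk4, and the 3 nearest profiles of each gene with an SD of at least 0.5. Angptl4 and Mt3 were named after their values were seen. Motif shares are over RefSeq promoter windows.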

Additional observations from a re-analysis of the deposited data

Results flagged for a closer look

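Of 60 values examined for an outlying sample (the 10 genes, their 12 other probe sets, and the further genes named by rule), 3 had 1 sample whose gap to the nearest other sample, as a share of the range, was above Dixon's 95% critical value for 4 samples. Chance alone flags about 1 in 20. The faintest Foxo3 probe set had a ratio of 0.971, with skm4 high at 5.67, skm5 at 4.88, nm7 at 4.90 and nm8 at 4.87. Hmox1 had a ratio of 0.947, with nm8 low at 7.01. Anxa1 had a ratio of 0.866, with skm4 low at 9.82, against 10.87 in skm5, 10.84 in nm7 and 10.73 in nm8.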

How the results depend on the processing

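The number of genes past the threshold, 4 as reported, was 188 with quantile normalization, 1026 when dim genes (below the median level) were left out and 92 with each gene's probe sets averaged. It was 142 without the marked classes of probe sets, those that may cross-hybridize or detect several related transcripts. It was 1110 with an intensity trend, 308 over probe sets and 995 at an adjusted p of 0.10, an alternative added after seeing the data. It ran from 0 to 15 with 1 sample left out. Of the 10 genes, 0 passed as reported and with 1 sample left out. Mt2 alone passed with quantile normalization, with the mean of probe sets, without the marked classes and over probe sets (1 in each). With dim genes left out 4 passed (Foxo3, Klf15, Mt2 and Tsc22d3), and with the trend 3 (Mt1, Mt2 and Tsc22d3). At 0.10, 2 did (Mt2 and Tsc22d3). Of 75 genes of the other lists, 0 passed as reported, 2 with quantile normalization, 14 of the 61 left after dropping dim genes, 15 with the trend and 9 at 0.10. The number of the 10 genes without overlap was 7 to 9 in the settings with all 4 samples. With 1 sample left out it was 8 to 10. Since 1 sample overlaps 2 less easily, those counts cannot be compared with the others, and the matching shares of all genes are not given. The median SD of the 10 genes was 0.26 to 0.37 throughout. Differences changed sign for Fbxo32 (-0.0028 without nm8 and -0.14 without skm4), Zbtb16 (0.35 without skm4) and Foxo1 (0.02 with the mean of probe sets). They also did for Nr3c1 (0.07 without nm7 and 0.12 without skm4), Pdk4 (0.36 without nm7) and Gclc (0.01 without the marked classes). The cause was not tested. With 1 sample left out, the lone sample of its prefix is assumed to vary like the others. No paired analysis was possible because all samples form 1 group.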
